A study of Mus musculus with 4 samples.

Results

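This account follows the lectin, Fc, Toll-like and paired innate receptors, with their shared adaptors, in leukaemia cells labelled as a conditional knockout of Ybx1. The genes were chosen by symbol and not by their values: every symbol beginning with Clec, Klr, Siglec, Cd300, Trem, Lilr, Fcgr or Nlrp, every numbered Tlr gene, and Tyrobp, Fcer1g, Myd88, Pirb, Sirpa, Ly86 and Ly96. The rule found 80 genes among the 28141 of the table. Another 56 symbols of the mouse annotation fit the rule and were without a row in the table used here, Sirpa, Ly86, Fcgr4 and Klrk1 among them. Polyadenylated RNA was sequenced from leukaemia cells of mouse bone marrow in a study of chronic myeloid leukaemia. The cells came from C57BL/6 mice and are called LSCs in the labels. There were 2 libraries of cells whose genotype is given as YBX1cKO (cKO here), a conditional knockout of Ybx1, which encodes an RNA- and DNA-binding Y-box protein, and 2 libraries of WT cells. The labels give neither the Cre driver of the knockout, nor the way the leukaemia was induced, nor the age of the mice, nor the origin of the replicates. If these were not separate animals, the p-values describe technical spread only. On the log2 scale used here, replicates differed little beyond the noise of counting (1.31 times Poisson noise in cKO and 1.1 times in WT). That scale was itself inferred from replicate noise.

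These receptors let myeloid cells read microbes, dying cells, antibodies and neighbouring cells. Many of the activating ones have no signalling tail and depend on the adaptors Tyrobp (DAP12) or Fcer1g (the Fc receptor gamma chain), whose ITAM motifs recruit the kinase Syk, while their inhibitory counterparts carry ITIM motifs in their own tails and recruit phosphatases. Toll-like receptors signal mostly through Myd88, and Nlrp proteins include the sensors of inflammasomes. Most are features of maturing or mature myeloid cells, and several are known on leukaemic stem or progenitor cells as well.

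Values are given on a log2 scale, obtained from the deposited log values by a factor inferred from replicate noise. On the other reading, in which the deposited numbers are log2 already, fold changes in log2 units grow 1.44 times and the p-values do not change. Ybx1 itself had log2 levels of 8.19 and 8.13 in the cKO libraries, against 9.31 and 9.41 in the WT libraries, so it was still expressed in cKO, and fell 2.29-fold (log2 fold change, cKO minus WT, of -1.20 ± 0.08 SE, adjusted p = 1.1e-11). The macrophage marker Adgre1 was high in every library, with log2 levels of 15.90 and 15.93 in cKO and 15.81 and 15.83 in WT, while the stem cell markers Kit, Cd34 and Meis1 were without a row. Of the stem and progenitor genes with a row, Mecom had 11.07 and 11.15 in cKO and 11.72 and 11.71 in WT, Gata2 10.55 and 10.56 in cKO and 10.95 and 11.03 in WT, and Ly6a 5.85 and 5.77 in cKO and 6.30 and 6.71 in WT. All 3 were called lower in cKO, and Hoxa9 was low in every library and not called. Depth is unknown because the table holds no counts.

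Receptor and adaptor genes were mostly either higher in cKO or not called. Of the 80 genes, 56 reached a deposited value of at least 1 in at least 2 libraries and were tested, and all 56 passed that filter in both groups. With limma across all 15527 genes tested and an adjusted p under 0.05 as the call, 26 of the 56 (46.4%) were higher in cKO, against 19.5% of all genes tested. Only 3 (5.36%) were lower, against 17.8% of all genes, and the other 27 were not called. Calls in either direction covered 51.8% of these genes and 37.4% of all genes. The median log2 fold change was 0.27 over the 56 genes and 0.003 over all genes tested. In 45 of the 56 the cKO and WT libraries did not overlap, which was also the case for 65.1% of all genes. In bulk RNA, fewer cells of a type and less RNA per cell cannot be told apart.

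Called rises were spread over the whole range of sizes. They ran from 1.06-fold to 5.96-fold. A called rise of at least 2-fold was found in 13 of the 56 tested receptor and adaptor genes and in 2.4% of all genes tested. The 3 called falls, Clec4e, Clec4a3 and Siglec1, ran from 1.61-fold to 3.87-fold. Highly expressed genes were called more often throughout the table, so the count was also read by level. At a mean log2 level of 7 or more, 17 of 24 receptor and adaptor genes were higher and 1 was lower, with 33.1% of all genes at these levels higher and 61.4% called either way. At 10 or more, 10 of 13 were higher and 1 lower, with 48.7% of all genes there higher and 76.2% called either way. Below 7, 9 of 32 were higher and 2 lower, with 15.6% of all genes at these levels called either way. The scaling of the libraries bears on small changes: dividing each level by the sum of its library, which was larger in cKO, moves the median log2 difference of all genes by -0.125, and then 23 of the 56 were higher and 4 lower, with 2132 genes higher and 4047 lower in the whole table in place of 3035 and 2768.

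**Figure D1:**
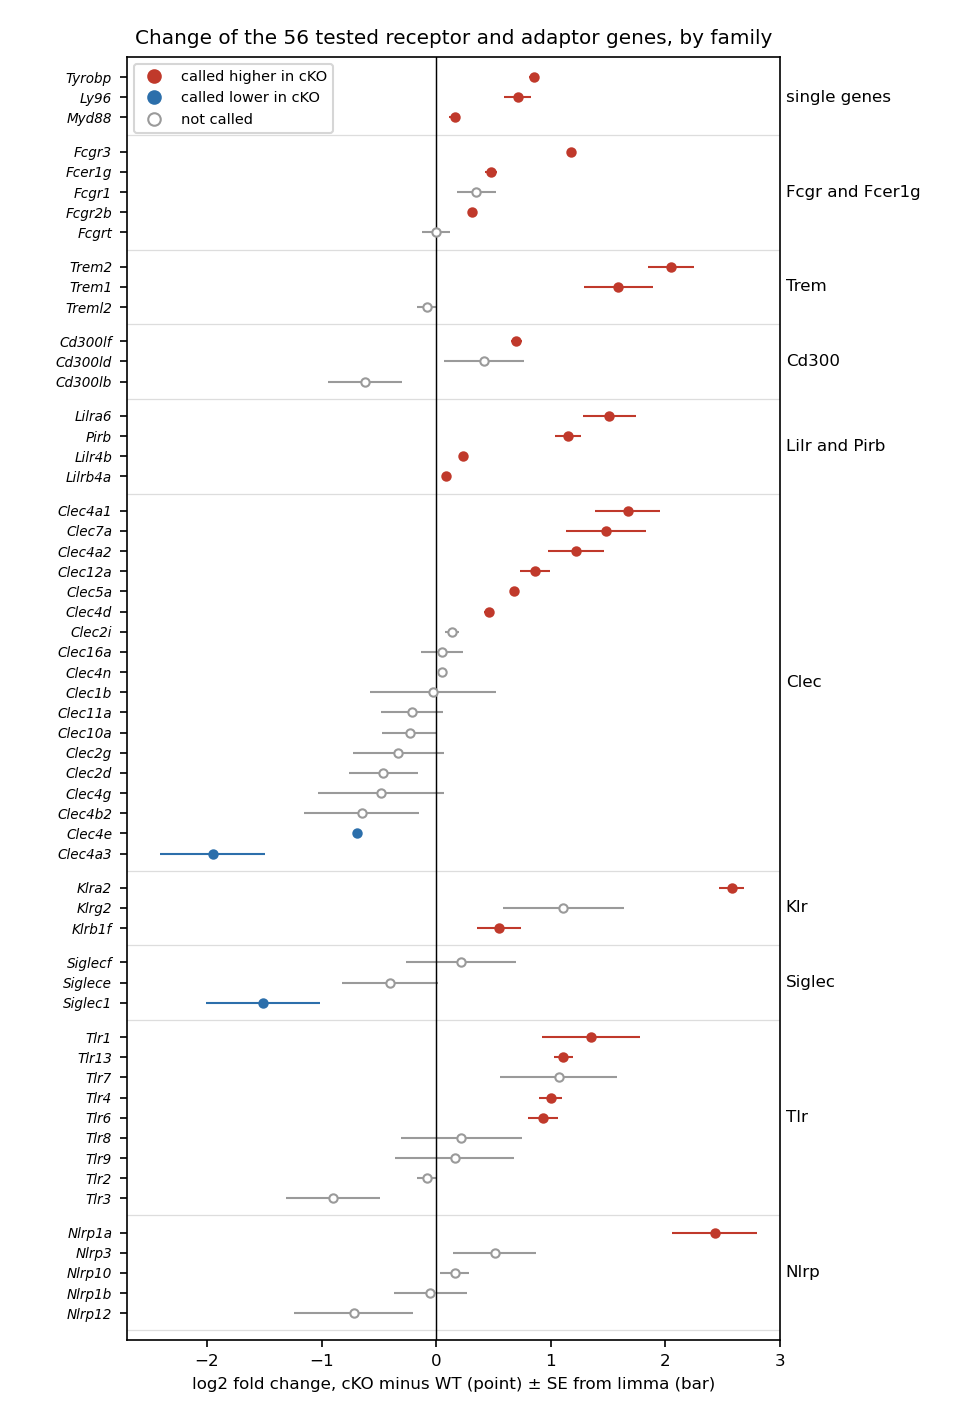
Log2 fold change (cKO minus WT, horizontal axis) with its SE for each of the 56 tested genes, ordered within families from the highest to the lowest change. Filled red points are the 26 genes called higher in cKO, filled blue points the 3 called lower, and open points the 27 not called; Klra2 reaches 2.58 and Clec4a3 -1.95.

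**Figure D2:**
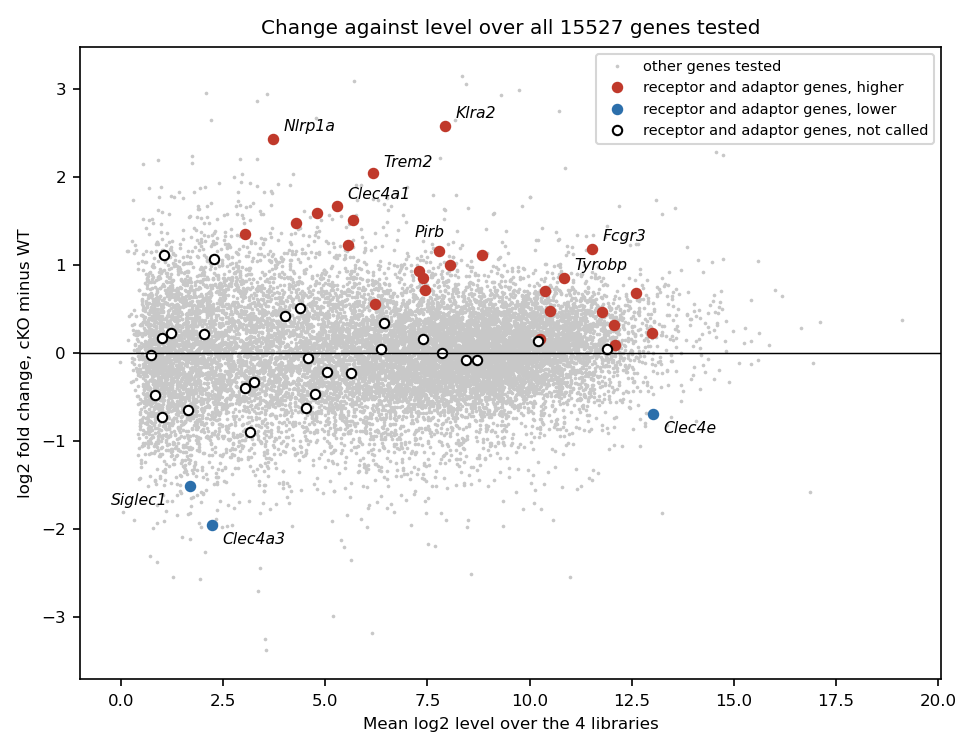
Log2 fold change (cKO minus WT, vertical axis) against the mean log2 level over the 4 libraries (horizontal axis) for all 15527 genes tested, in grey, with the receptor and adaptor genes on top. Klra2 (2.58) and Fcgr3 (1.18) lie above 0, and Clec4e lies below 0 at a mean level near 13.02.

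Promoter sequences of 5 genes are shown as examples, and some genes with larger or more opposed changes, such as Nlrp1a, Clec4a1 and Clec4a3, were left out. They belong to Klra2 and Trem2, with the largest rises of their families, and to neighbours Clec4d and Clec4e, which changed in opposite directions. The last belongs to Fcer1g, the adaptor that Clec4d and Clec4e use. Each is the 250 bases before the RefSeq start on GRCm38.p6, written 5′ to 3′ on the strand of the gene, with capitals marking GAGGAA or its complement TTCCTC, the core recognised by PU.1, a master transcription factor of myeloid cells.
Klra2, chr6:131247363-131247612, minus strand: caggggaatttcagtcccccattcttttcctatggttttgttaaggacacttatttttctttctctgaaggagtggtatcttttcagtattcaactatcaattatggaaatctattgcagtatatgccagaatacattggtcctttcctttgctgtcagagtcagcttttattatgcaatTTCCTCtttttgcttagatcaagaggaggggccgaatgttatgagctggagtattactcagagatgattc
Trem2, chr17:48346151-48346400, plus strand: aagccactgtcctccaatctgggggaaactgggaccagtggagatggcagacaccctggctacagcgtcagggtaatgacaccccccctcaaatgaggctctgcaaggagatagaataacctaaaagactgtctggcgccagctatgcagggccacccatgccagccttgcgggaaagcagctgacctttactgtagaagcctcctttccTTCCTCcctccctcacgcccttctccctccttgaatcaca
Clec4d, chr6:123261857-123262106, plus strand: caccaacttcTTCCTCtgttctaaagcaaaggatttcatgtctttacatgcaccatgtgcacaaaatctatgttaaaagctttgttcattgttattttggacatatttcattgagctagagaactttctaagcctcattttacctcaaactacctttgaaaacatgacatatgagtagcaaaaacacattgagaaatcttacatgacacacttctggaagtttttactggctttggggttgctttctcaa
Clec4e, chr6:123289872-123290121, minus strand: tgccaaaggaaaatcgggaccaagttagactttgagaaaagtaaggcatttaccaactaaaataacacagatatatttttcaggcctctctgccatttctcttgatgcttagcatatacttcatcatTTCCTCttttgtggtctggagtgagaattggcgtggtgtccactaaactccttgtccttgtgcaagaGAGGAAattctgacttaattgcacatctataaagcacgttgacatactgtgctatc
Fcer1g, chr1:171234350-171234599, minus strand: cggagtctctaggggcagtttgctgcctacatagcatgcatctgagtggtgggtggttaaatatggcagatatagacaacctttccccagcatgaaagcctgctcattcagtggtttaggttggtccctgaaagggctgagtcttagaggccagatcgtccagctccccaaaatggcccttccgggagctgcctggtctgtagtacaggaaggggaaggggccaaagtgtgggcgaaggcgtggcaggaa

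The PU.1 core was common upstream of these genes whether or not they changed. RefSeq promoters were matched for 46 of the 56 tested genes, and 24 of the 29 called ones. In 28 of the 46 (60.9%) the 250 bases held GAGGAA on either strand, against 23.1% of all 27025 promoters searched. It was found for 15 of the 22 genes called higher (68.2%), for 1 of the 2 called lower and for 12 of the 22 not called (54.5%). Counted from the start, Klra2 held it at -70 to -65, Trem2 at -40 to -35, Clec4d at -240 to -235 and Clec4e at both -123 to -118 and -56 to -51, while the Fcer1g window held none. Pirb and Lilra6 held 3 each, with the same strands and spacing, and are counted as separate promoters. The interferon response core (GAAA, 2 bases of any kind, GAAA) was in 3 of the 46 promoters (6.52%), those of Myd88 and Tlr6 included, against 3.04% of all promoters. The AP-1 letters TGANTCA were in 4 (8.7%), those of Trem2 and Clec12a included, against 6.87%, and the NF-kB letters (GGGA, any base, TTTCC) in 1 (2.17%), against 0.337%. All were searched on both strands. In no called gene did matches of different motifs overlap, while the pair of interferon core matches of Tlr6 overlapped each other. A match describes the letters only.

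Both ITAM adaptors rose. Tyrobp had log2 levels of 11.30 and 11.25 in cKO, against 10.40 and 10.44 in WT. Its groups lay far apart relative to the spread within them, and it rose 1.81-fold (0.85 ± 0.04 SE, adjusted p = 7.1e-14). Fcer1g had 10.78 and 10.68 in cKO, against 10.21 and 10.29 in WT. It rose 1.40-fold (0.48 ± 0.05 SE, adjusted p = 3.2e-08), a call that was lost when limma's prior variance was not allowed to follow the level (adjusted p = 0.0503). The log2 difference of Tyrobp from Fcer1g within a library was 0.52 and 0.57 in cKO and 0.19 and 0.16 in WT, so Tyrobp gained on Fcer1g in cKO. Such differences are not corrected for gene length, and only their change between the groups is read. With 2 libraries a group, an exact permutation test of such a difference cannot go below p = 0.333, and these differences are given without a test.

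Among the Fc receptors, which bind the constant part of antibodies, the activating Fcgr3 rose 2.26-fold and the inhibitory Fcgr2b 1.24-fold. Fcgr3, which signals through Fcer1g, had log2 levels of 12.11 and 12.12 in cKO, against 10.94 and 10.93 in WT, and rose 2.26-fold (1.18 ± 0.04 SE, adjusted p = 3.8e-18). Fcgr2b, which carries an ITIM, had 12.20 and 12.25 in cKO, against 11.94 and 11.88 in WT, and rose 1.24-fold (0.31 ± 0.03 SE, adjusted p = 3.9e-08; adjusted p = 0.0732 without the trend in prior variance). The log2 difference of Fcgr3 from Fcgr2b within a library was -0.09 and -0.13 in cKO and -1.0 and -0.95 in WT, so Fcgr3 gained on Fcgr2b in cKO. The difference of Fcgr3 from its adaptor Fcer1g was 1.33 and 1.44 in cKO, against 0.73 and 0.64 in WT. Fcgr1, the high-affinity receptor, was not called, with 6.60 and 6.64 in cKO and 6.25 and 6.30 in WT (adjusted p = 0.13), although its groups did not overlap. Fcgrt, which recycles antibodies inside cells, had 7.84 and 7.89 in cKO and 8.02 and 7.70 in WT, and its groups overlapped. Fcgr2b shares 155 exon bases with an antisense gene, and Fcgr2b and Fcgr3 are similar in sequence, so some reads may not be told apart.

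Both triggering receptors that pair with Tyrobp rose by 3-fold or more. Trem2, a lipid-sensing receptor of macrophages and microglia, had log2 levels of 7.22 and 7.16 in cKO, against 5.29 and 5.0 in WT, and rose 4.13-fold (2.05 ± 0.20 SE, adjusted p = 5.6e-09). Trem1, an amplifier of inflammatory responses, had 5.40 and 5.77 in cKO, against 3.86 and 4.13 in WT, and rose 3.01-fold (1.59 ± 0.30 SE, adjusted p = 0.00011). In both genes the lower cKO library lay above the higher WT library. Relative to Tyrobp in the same library, Trem2 stood at a log2 difference of -4.08 and -4.09 in cKO and of -5.11 and -5.44 in WT. Treml2 was not called, with 8.70 and 8.65 in cKO and 8.66 and 8.86 in WT, and its groups overlapped. Treml1 was below the filter and was not tested.

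Of the Cd300 receptors, which bind lipids of cell membranes, only the inhibitory Cd300lf was called. It had log2 levels of 10.73 and 10.71 in cKO, against 10.03 and 10.02 in WT, and rose 1.62-fold (0.70 ± 0.05 SE, adjusted p = 2.3e-11). The activating Cd300lb had 3.97 and 4.45 in cKO, against 5.0 and 4.66 in WT, with a log2 fold change of -0.62 that was not called (adjusted p = 0.14). It was called lower without cKO replicate 2 (-0.86, adjusted p = 0.045). Cd300ld had 4.03 and 4.42 in cKO and 3.91 and 3.69 in WT and was not called (0.42, adjusted p = 0.39).

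All 4 leukocyte immunoglobulin-like receptors with a row were called higher, as were 19.5% of all genes tested. Changes were large in the paired receptors of chromosome 7 and small in the genes of chromosome 10. Of the latter, Lilrb4a changed sign under 2 other scalings. Lilra6, an activating receptor that uses Fcer1g, had log2 levels of 6.39 and 6.49 in cKO, against 5.18 and 4.69 in WT, and rose 2.84-fold (1.51 ± 0.23 SE, adjusted p = 1.1e-05). Its inhibitory partner Pirb, a receptor for MHC class I molecules, had 8.41 and 8.32 in cKO, against 7.25 and 7.17 in WT, and rose 2.23-fold (1.15 ± 0.11 SE, adjusted p = 5.8e-09). Activating and inhibitory paired receptors thus moved the same way, and the log2 difference of Lilra6 from Pirb was -2.02 and -1.83 in cKO and -2.08 and -2.48 in WT. Lilr4b had 13.10 and 13.13 in cKO, against 12.90 and 12.88 in WT, and rose 1.17-fold (0.23 ± 0.03 SE, adjusted p = 1.2e-07). That call was lost after quantile normalization (0.02, adjusted p = 0.47) and without the trend in prior variance (adjusted p = 0.105). The inhibitory Lilrb4a had 12.13 and 12.12 in cKO, against 12.04 and 12.04 in WT (0.09 ± 0.03 SE, adjusted p = 0.029). The Lilrb4a call did not survive the removal of any of the 4 libraries (adjusted p from 0.052 to 0.14), of the filter (0.09) or of the trend (0.396), and the sign turned after quantile normalization (-0.02, adjusted p = 0.65) and library sum scaling (-0.04, adjusted p = 0.414). Lilrb4a shares 1846 exon bases, and Lilr4b 122, with the overlapping gene Gm49339, and Lilra6 and Pirb are close copies, so the split of reads within each pair is uncertain.

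C-type lectin receptors were the largest family, with 26 rows and 18 tested genes, and they divided: 6 were higher, 2 lower and 10 not called, with a median log2 fold change of 0.01. Clec4e (Mincle), a Fcer1g-coupled receptor for mycobacterial glycolipids and dying cells, fell. It had 12.66 and 12.68 in cKO, against 13.39 and 13.32 in WT, a 1.61-fold fall (-0.69 ± 0.03 SE, adjusted p = 7.8e-16). Clec4d, its partner on the cell surface and a receptor for the same glycolipids, had 12 in both cKO libraries after rounding, against 11.57 and 11.50 in WT, and rose 1.38-fold (0.46 ± 0.04 SE, adjusted p = 1.6e-10). The log2 difference of Clec4e from Clec4d within a library was therefore 0.66 and 0.68 in cKO, against 1.82 and 1.82 in WT, and that of Clec4e from the adaptor Fcer1g was 1.88 and 2.0 in cKO, against 3.18 and 3.03 in WT. Clec4n, a receptor for fungal mannans that also uses Fcer1g, had 11.90 and 11.93 in cKO and 11.88 and 11.86 in WT, and was not called (0.05, adjusted p = 0.33), except after a median shift was removed (0.11, adjusted p = 0.011).

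Other lectin receptors that rose include activating and inhibitory ones. Clec5a, which signals through Tyrobp, had log2 levels of 12.94 and 12.95 in cKO, against 12.27 and 12.25 in WT, and rose 1.60-fold (0.68 ± 0.03 SE, adjusted p = 1.1e-15). Its log2 difference from Tyrobp was 1.64 and 1.69 in cKO and 1.86 and 1.81 in WT. Clec12a, an inhibitory receptor for uric acid crystals and a known surface marker of myeloid leukaemia cells in people, had 7.83 and 7.82 in cKO, against 6.89 and 7.05 in WT, and rose 1.81-fold (0.86 ± 0.13 SE, adjusted p = 5.9e-06). Clec7a, the beta-glucan receptor, had 5.38 and 4.65 in cKO, against 3.76 and 3.31 in WT, and rose 2.78-fold (1.48 ± 0.35 SE, adjusted p = 0.0015). In each of these genes the groups stood apart, with the widest spread within cKO in Clec7a, whose call was lost without the trend in prior variance (adjusted p = 0.0778) and without the filter (adjusted p = 0.079). The lectin genes that were not called include Clec2d, the ligand of an inhibitory Klrb1 receptor, with 4.70 and 4.34 in cKO and 4.92 and 5.05 in WT (-0.46, adjusted p = 0.25), and Clec10a, a receptor for galactose-type sugars, with 5.32 and 5.72 in cKO and 5.57 and 5.92 in WT (-0.23, adjusted p = 0.51). Clec16a (0.05), Clec1b (-0.03), Clec11a (-0.21), Clec2g (-0.33) and Clec4g (-0.48) were not called either.

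**Figure D3:**
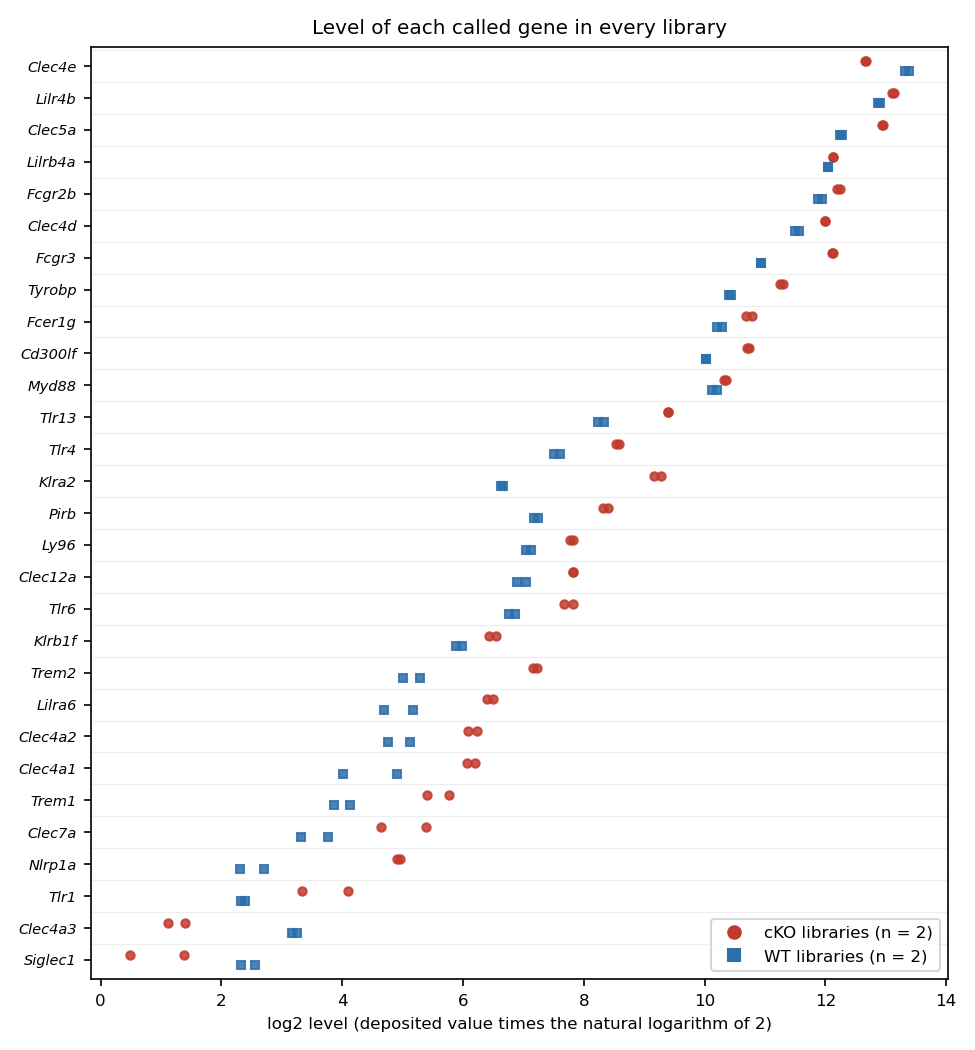
Log2 level (horizontal axis) of the 29 called genes, ordered down the page by level, in each of the 2 cKO libraries (red circles) and 2 WT libraries (blue squares). The cKO points lie right of the WT points in the 26 genes called higher and left of them in Clec4e, Clec4a3 and Siglec1; in Clec4e cKO stood at 12.66 and 12.68 and WT at 13.39 and 13.32.

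The opposed lectin genes are neighbours. A stretch of mouse chromosome 6 from 122921848 to 123289870 (GRCm38) holds 8 Clec4 genes within 368.0 kb, in the order Clec4a1, Clec4a3, Clec4a4, Clec4a2, Clec4b2, Clec4n, Clec4d and Clec4e. Clec4d and Clec4e lie on opposite strands with 6523 bases between them. Clec4a1 had log2 levels of 6.06 and 6.20 in cKO, against 4.90 and 4.02 in WT, and rose 3.19-fold (1.67 ± 0.28 SE, adjusted p = 3.4e-05; adjusted p = 0.0693 without the trend in prior variance). Its neighbour Clec4a3 had 1.12 and 1.39 in cKO, against 3.17 and 3.25 in WT, and fell 3.87-fold (-1.95 ± 0.46 SE, adjusted p = 0.0014), a call lost when no filter was used (adjusted p = 0.062). The inhibitory Clec4a2 had 6.24 and 6.08 in cKO, against 4.76 and 5.12 in WT, and rose 2.34-fold (1.22 ± 0.24 SE, adjusted p = 0.0002). The log2 difference of Clec4a1 from Clec4a3 was 4.94 and 4.81 in cKO, against 1.73 and 0.77 in WT. The difference was wider in cKO, but it rests in part on the low levels of Clec4a3. Clec4b2 had 1.60 and 1.01 in cKO and 1.72 and 2.19 in WT and was not called (-0.65, adjusted p = 0.35). Clec4a1 to Clec4a4 are similar in sequence, and the sources used here do not say how reads common to them were assigned. The 3 rises and 2 falls along the stretch had no common direction.

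**Figure D4:**
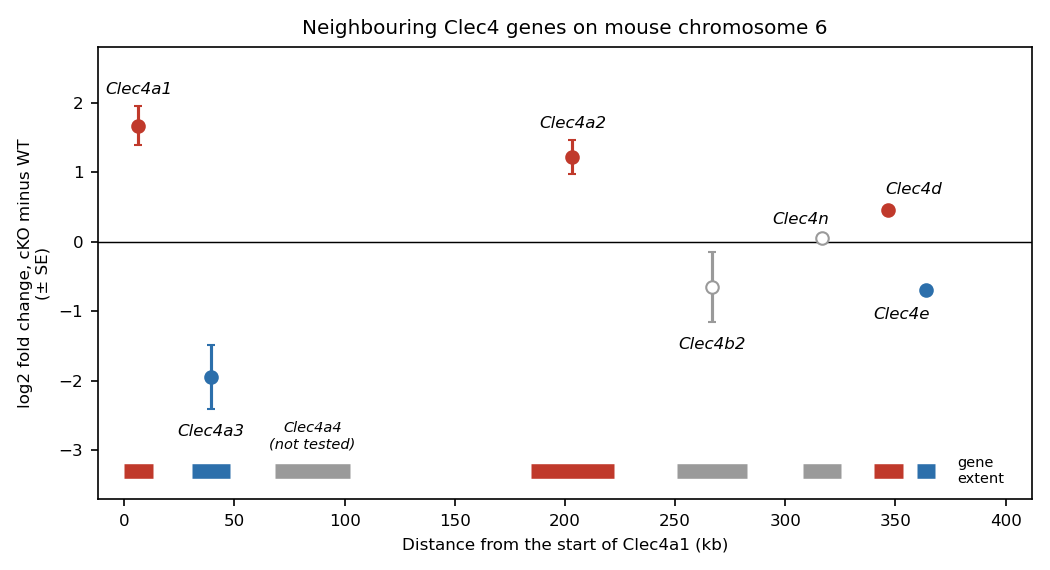
Log2 fold change (cKO minus WT) ± SE of the Clec4 genes at their distance in kb from the start of Clec4a1, with the extent of each gene as a bar at the bottom, red for called higher, blue for called lower and grey for not called or not tested. Clec4a1, Clec4a2 and Clec4d lie above 0 and Clec4a3 and Clec4e below it.

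Klra2 showed the largest rise of all the receptor genes. It encodes an inhibitory member of the Ly49 family of lectin-like receptors found on myeloid cells, in contrast with the Ly49 receptors of natural killer cells, and lies on chromosome 6 next to other Klr genes. Klra2 had log2 levels of 9.16 and 9.28 in cKO, against 6.66 and 6.63 in WT, and rose 5.96-fold (2.58 ± 0.11 SE, adjusted p = 8.6e-16). The activating receptor Klrb1f had 6.54 and 6.43 in cKO, against 5.98 and 5.89 in WT, and rose 1.46-fold (0.55 ± 0.19 SE, adjusted p = 0.024). That call was lost without cKO replicate 1 (adjusted p = 0.075), without WT replicate 1 (0.065), without WT replicate 2 (0.13) and with library sum scaling (0.0783). Clec2i, which encodes a lectin-like ligand of such receptors, had 10.34 and 10.21 in cKO and 10.20 and 10.08 in WT and was not called (0.14, adjusted p = 0.064), although it was called without cKO replicate 2 (adjusted p = 0.0043), without WT replicate 1 (0.025) and after a median shift was removed (0.0047). Klrg2 was not called (1.11, adjusted p = 0.11), and Klra10, Klra11-ps, Klrb1-ps1 and Klrc3 were below the filter in every library. Of 10 natural killer and T cell markers, only Gzmb, Lat and Ccl5 had a row, and all 3 were lower in cKO. Their summed level per 1000000 was 61.2 and 66.3 in cKO and 154 and 157 in WT. The other 7, Ncr1, Prf1 and Cd3e among them, were without a row. The part of such cells in the rise of Klra2 was not tested.

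Siglec1, the sialic acid receptor of macrophages also called sialoadhesin, was the only Siglec gene called. It had log2 levels of 0.49 and 1.38 in cKO, against 2.56 and 2.33 in WT, and fell 2.84-fold (-1.51 ± 0.50 SE, adjusted p = 0.02). The groups did not overlap, but the level was low, and the call was lost without cKO replicate 1 (adjusted p = 0.15), WT replicate 1 (0.15) or WT replicate 2 (0.077), without the filter (0.18) and without the trend in prior variance (0.0832). Siglece (-0.40, adjusted p = 0.51) and Siglecf (0.22, adjusted p = 0.77) were not called.

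At an adjusted p under 0.05, 4 of the 9 tested Toll-like receptors were higher (44.4%) and none was lower. Of all genes tested, 19.5% were higher and 17.8% lower, and 33.1% were higher at a mean log2 level of 7 or more. Tlr3 was called lower with library sum scaling or with a threshold of 0.10. Tlr4 and Ly96 together form the lipopolysaccharide receptor. Tlr4 had log2 levels of 8.59 and 8.53 in cKO, against 7.61 and 7.51 in WT, and rose 2.0-fold (1.0 ± 0.10 SE, adjusted p = 1.4e-08). Ly96 had 7.83 and 7.78 in cKO, against 7.05 and 7.12 in WT, and rose 1.64-fold (0.71 ± 0.12 SE, adjusted p = 4.5e-05). The co-receptor Cd14, from the list of signalling genes, moved the same way (1.17, adjusted p = 9.9e-15). Tlr13, which senses bacterial ribosomal RNA in endosomes, had 9.40 and 9.40 in cKO, against 8.24 and 8.34 in WT, and rose 2.16-fold (1.11 ± 0.08 SE, adjusted p = 2.5e-11).

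The receptors for bacterial lipopeptides act as pairs of Tlr2 with Tlr1 or Tlr6, and the partners rose while Tlr2 was not called. Tlr6 had log2 levels of 7.83 and 7.67 in cKO, against 6.77 and 6.87 in WT, and rose 1.91-fold (0.93 ± 0.13 SE, adjusted p = 3.2e-06). Tlr1 had 4.09 and 3.33 in cKO, against 2.32 and 2.39 in WT, and rose 2.55-fold (1.35 ± 0.43 SE, adjusted p = 0.014). The Tlr1 call was lost without cKO replicate 1 (adjusted p = 0.15), WT replicate 1 (0.062), the filter (0.16) or the trend in prior variance (0.0756). Tlr2 had 8.41 and 8.42 in cKO and 8.49 and 8.49 in WT (-0.08, adjusted p = 0.54). The log2 difference of Tlr6 from Tlr2 was -0.58 and -0.75 in cKO, against -1.72 and -1.62 in WT.

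Receptors for nucleic acids in endosomes other than Tlr13 were not called. Tlr3, a sensor of double-stranded RNA, had log2 levels of 2.60 and 2.79 in cKO and 3.81 and 3.38 in WT (-0.90, unadjusted p = 0.039, adjusted p = 0.093), and was the only Tlr gene below an unadjusted p of 0.05 on the lower side. Tlr7, a sensor of single-stranded RNA, had 2.93 and 2.70 in cKO and 2.48 and 1.01 in WT (1.07, adjusted p = 0.10), and was called higher without WT replicate 1 (1.81, adjusted p = 0.025). Tlr8 (0.22, adjusted p = 0.79) and Tlr9 (0.16, adjusted p = 0.85) were not called, and Tlr5, the flagellin receptor, was below the filter. The common adaptor Myd88 had 10.36 and 10.32 in cKO, against 10.21 and 10.13 in WT, and rose 1.12-fold (0.16 ± 0.05 SE, adjusted p = 0.015). That small rise lost its call without cKO replicate 1 (adjusted p = 0.053), WT replicate 2 (0.18), the filter (0.087) or the trend (0.208), after quantile normalization (0.084) and with library sum scaling (0.602), and Myd88 shares 290 exon bases with Acaa1a on the other strand.

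Nlrp1a was the only Nlrp gene called and showed the second largest rise of the receptor genes. It encodes an inflammasome sensor whose activation in mice is known to deplete blood progenitors. Nlrp1a had log2 levels of 4.96 and 4.90 in cKO, against 2.30 and 2.70 in WT, and rose 5.39-fold (2.43 ± 0.37 SE, adjusted p = 8.8e-06). Its paralog Nlrp1b had 4.57 and 4.51 in cKO and 4.29 and 4.90 in WT, and its groups overlapped (-0.05, adjusted p = 0.93). The log2 difference of Nlrp1a from Nlrp1b was 0.38 and 0.39 in cKO, against -1.99 and -2.20 in WT, so Nlrp1a gained on Nlrp1b in cKO. Reads that fit both paralogs may have been split between them. Nlrp3 had 4.16 and 5.09 in cKO and 3.82 and 4.42 in WT and was not called (0.51, adjusted p = 0.30), but was called higher without cKO replicate 1 (0.97, adjusted p = 0.026). Nlrp10 (0.16, adjusted p = 0.39) and Nlrp12 (-0.72, adjusted p = 0.31) were not called, and 8 of the 13 Nlrp genes were below the filter.

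Sorted by signalling role, activating and inhibitory receptors both held rises, in groups assigned after the values were known. Of 9 tested receptors with inhibitory tails, 7 were higher and 0 lower at an adjusted p under 0.05 in limma, with a median log2 fold change of 0.70. At an unadjusted p under 0.05, 0 were lower as well. The 7 include Fcgr2b, whose call was lost without the trend in prior variance. They also include Lilrb4a, whose sign turned after quantile normalization and with library sum scaling. Over all genes tested, 19.5% were higher and 17.8% lower, and 33.1% were higher at a mean log2 level of 7 or more. Of 4 tested receptors that use Tyrobp, 3 were higher and 0 lower (0 also unadjusted), with a median of 1.14. The 7 tested receptors that use Fcer1g split into 3 higher and 1 lower, Clec4e, with a median of 0.42. Of 2 tested activating receptors with tails of their own, 1 was higher, Clec7a, and 0 lower. Klrb1f and a number of other receptors were placed in no group. No difference between these groups was tested.

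Per length, the adaptor Tyrobp was the most abundant of the 56 tested genes in cKO. Levels were set per 1000000 of the library sum and per kb of exon, a scale on which all log2 differences shift by about -0.125. Tyrobp had 307 in cKO (rank 1) and 185 in WT (rank 3). Clec4n stood at 225 in cKO (rank 2) and at 237 in WT (rank 1). Clec4e held rank 8 in cKO with 108 and rank 2 in WT with 190. Fcgr3 had 211 in cKO (rank 3, tied with Clec4d) and 102 in WT (rank 8), and Clec4d had 211 in cKO and 167 in WT (rank 4). Klra2 was at 25.9 in cKO and 4.74 in WT, and Pirb at 6.1 in cKO and 2.99 in WT. The receptors Fcgr3, Clec5a, Clec4d, Clec4n and Clec4e were thus far more abundant per length than Tlr4, at 5.61 in cKO and 3.06 in WT.

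**Figure D5:**
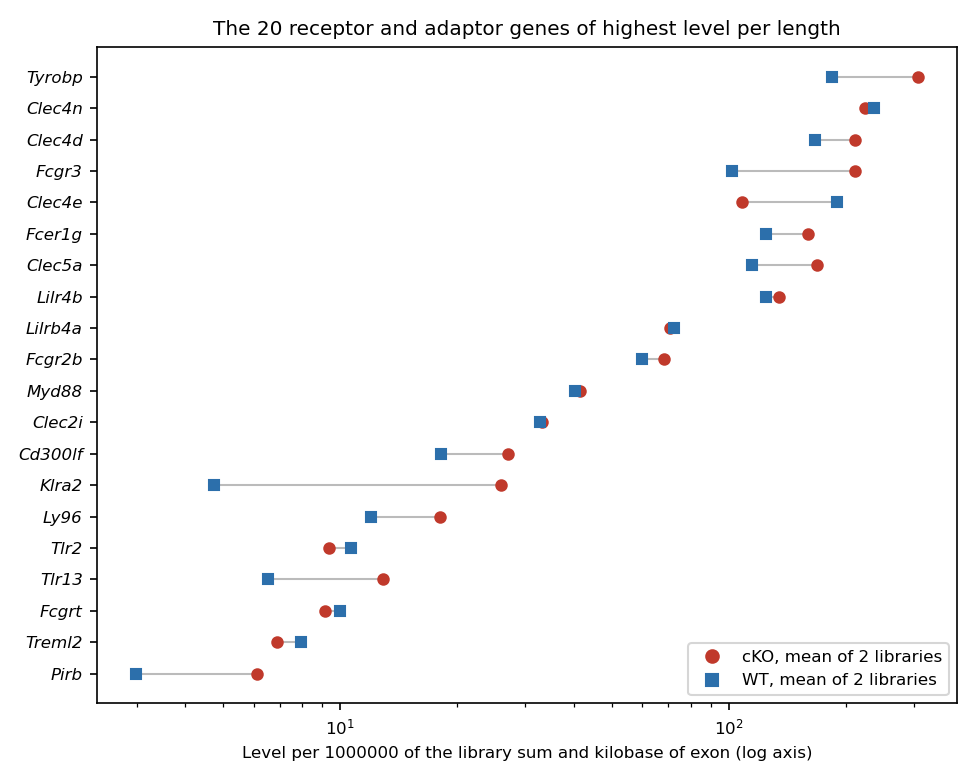
Mean level per 1000000 of the library sum and per kb of exon (log axis) of the 20 receptor and adaptor genes highest on this scale, as the mean of 2 cKO libraries (red circles) and of 2 WT libraries (blue squares). Tyrobp leads in cKO with 307, and Clec4e has 108 in cKO and 190 in WT.

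The 24 genes below the filter had log2 levels from -2.19 to 0.88 over all libraries. They hold 8 Clec, 8 Nlrp, 4 Klr and 1 each of the Siglec, Trem, Tlr and Cd300 genes. Of the 80 genes, 13 have the same 4 values as some other gene of the table, compared exactly as deposited.

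Genes that act with these receptors changed in both directions. Over all genes tested, 19.5% were higher and 17.8% lower. Of 25 genes of TLR and Myd88 signalling, 24 were tested, 8 were higher and 7 lower, with a median log2 fold change of 0.01; Irf7 fell (-2.54, adjusted p = 1.9e-23) and Irak4, the kinase that Myd88 recruits, rose (0.91, adjusted p = 8.7e-13). Of 16 tested genes of ITAM and Syk signalling, 3 were higher and 2 lower, with a median of 0.02; the kinases Lyn (0.63) and Prkcd (0.31) rose and Btk (-0.22) fell. Of 12 ITIM-linked phosphatases and partners, 2 were higher (16.7%) and 5 lower (41.7%), with a median of -0.12. The lower ones were Ptpn6, the phosphatase SHP-1 (-0.40), Ptpn11 (-0.52), Inpp5d (-0.28), Csk (-0.36) and Dok2 (-0.11). Cd47 (0.44) and Dok3 (0.56) were higher. Of 17 tested inflammasome partners, 3 were higher and 4 lower. Of 18 tested pattern receptors outside the rule, 7 were higher and 6 lower, with rises of the formyl peptide receptor Fpr1 (1.79) and the scavenger receptor Msr1 (1.75) and falls of the RNA sensors Ifih1 (-1.28) and Ddx58 (-0.70). The 6 lower pattern receptors became 3 without cKO replicate 2 or WT replicate 1 and 4 without WT replicate 2. The 5 lower ITIM-linked genes became 3 without WT replicate 1 and 0 without the trend in prior variance, and the 2 lower ITAM and Syk genes became 1 without cKO replicate 2, WT replicate 1 or WT replicate 2. With library sum scaling, TLR and Myd88 genes were 5 higher and 10 lower, and ITAM and Syk genes 3 higher and 7 lower.

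Some neutrophil, monocyte and macrophage markers were higher in cKO, while others were lower, not called or without a row. Of 10 neutrophil markers, 3 had a row (Mmp8, Mmp9 and Cxcr2) and all 3 were higher in cKO, Cxcr2 only while both cKO replicate 1 (adjusted p = 0.18 without it) and WT replicate 1 (0.32 without it) were kept. S100a8, S100a9, Ltf and Camp were without a row. The 3 genes had a summed level per 1000000 of 1070 and 1070 in cKO, against 300 and 326 in WT. Of 10 monocyte and macrophage markers, 7 had a row, 6 were tested, 4 were higher (Lyz2, Cd68, Ccr2 and Adgre1, the last by 0.09 in log2) and Ms4a6c was lower (-1.57, adjusted p = 0.0023), a call that was lost without WT replicate 2, while Csf1r was not called (0.07). Their sum was 10500 and 10500 in cKO, against 6590 and 6690 in WT. Most of that difference lay in Lyz2 alone, with 4940 and 4880 in cKO, against 1120 and 1130 in WT. On this scale Adgre1 was lower in cKO, with 5050 and 5140, against 5170 and 5260 in WT. Of 5 tested dendritic cell markers only Bst2 was called, lower in cKO, with a sum of 50 and 44.3 in cKO and 77.2 and 80.9 in WT. Of 8 tested megakaryocyte and platelet markers, 2 were higher and 2 lower. The sum of this list was 677 and 695 in cKO and 483 and 505 in WT. Ppbp alone had 318 and 323 in cKO, against 78.9 and 84.2 in WT, a larger difference than that of the sum. Pf4 was also higher (0.68 in log2), while Itgb3 (-1.9) and Itga2b (-0.21) were lower. Of 3 basophil and mast cell markers, Gata2 and Hdc were lower and Cpa3 higher (0.14, a call lost without cKO replicate 1 or WT replicate 2), with a sum of 310 and 301 in cKO and 363 and 371 in WT. The 3 erythroid markers summed to 133 and 127 in cKO and 181 and 171 in WT. The part of these cell types in the rises of the receptor genes was not tested.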

How the data were processed

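RNA-seq was analysed for 2 cKO and 2 WT libraries. Per the labels' protocols, messenger RNA was isolated with oligo dT, fragmented and randomly primed with a VAHTS mRNA-seq V2 kit. The sources used here do not say whether strand was used. Per the submitters' processing notes, the tools were CASAVA, HISAT2 2.1.0, featureCounts and DESeq2 and the build was GRCm38; their roles are not stated. The authors deposited 1 table of 28141 genes with a log score of unstated base per library, from -3.19 to 27.9. Columns matched the samples by title and 0 value columns were left out.

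Scores were multiplied by 0.693, the natural log of 2, to give log2 levels. On that reading the ratio of replicate noise to Poisson noise was 1.31 in cKO and 1.1 in WT, against 5.94 and 4.85 for plain log2 and 43 and 35.1 for natural logs. Back-transformed levels summed to 12104617 and 12134026 in cKO and 11157952 and 11074317 in WT. Whether these are counts is not stated, so depth stays unknown and intervals from counting are not given. No libraries were identical.

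A gene was tested if 2 or more libraries reached a score of 1, which left 15527 genes. The two-sided test was that of limma 3.58.1 in R 4.3.3 (lmFit, then eBayes with trend), p-values were adjusted by Benjamini-Hochberg over all 15527, and calls needed an adjusted p under 0.05. Differences are cKO minus WT. The planned count tests were not run, since the table holds no counts, and the test was checked on simulated data. Values in every library are given for the adaptors and for up to 6 called genes and the most abundant one of each family, and others were named freely. The genes, lists and alternatives were chosen with earlier results of these data known. Positions and exon lengths come from GENCODE M21 on GRCm38 (80 of 80 genes found) and promoters from RefSeq on GRCm38.p6. Tables and plots used Python 3.11.15, numpy 2.4.6, pandas 2.3.3 and matplotlib 3.10.9.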

Additional observations from a re-analysis of the deposited data

How the results depend on the processing

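Over 14 refits, 18 of the 29 called receptor and adaptor genes kept their call in every one and 28 kept their direction. Lilrb4a turned to -0.02 after quantile normalization and to -0.04 with library sum scaling, an alternative chosen after seeing the data. Without a trend in the prior variance, 2267 genes were called in the table (1177 higher, 1090 lower) and 20 of the 29 calls held. In the fit with the trend, requiring also a size of at least 1 in log2 left 854 calls (372 higher, 482 lower), with 13 receptor genes higher. With scores read as plain log2 under the same rule, 1692 were called (790 higher, 902 lower). Without the filter 1 receptor gene was lower. Leaving out each library gave 4662 to 5803 calls, 2485 to 2982 higher and 2140 to 2821 lower, with 23 to 26 receptor genes higher and 2 to 4 lower; where 1 library was left in a group, it was assumed to vary like the other group. With the replicate number as a block in limma, 6026 genes were called, 27 receptor genes higher and 3 lower. Clec2i was the added call (adjusted p = 0.031). Same-numbered libraries deviated together with a correlation of 0.0127 over the genes tested. That check cannot exclude a pairing, because replicate noise was close to Poisson noise (ratios of 1.31 in cKO and 1.1 in WT). The labels do not give the origin of the replicates. edgeR and DESeq2 were not run, as the table holds no counts. Depth is unknown, and low genes such as Siglec1 and Tlr1 lost their call when 1 library was left out.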
